A study of Drosophila melanogaster with 12 samples.

Results

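Aged and young oenocytes were compared after both had been exposed to paraquat. Oenocytes are subcuticular cells of the fly abdomen, and their ribosome-bound mRNA was isolated with RiboTag, in which a FLAG-tagged ribosomal protein RpL13A expressed in 1 cell type is pulled down with its translating mRNA. All flies were mated females carrying PromE-Gal4, an oenocyte driver made from a Desat1 enhancer, and UAS-RpL13A-FLAG, so the tag and the driver were shared by every group and each replicate was a pool of whole animals. The driver is also active in the male reproductive tract, which is why only females were used. The 4 groups had 3 libraries each, and in the study's principal component analysis a library of H2O-Young did not group with its replicates. They are named H2O-Young and PQ-Young for young flies, H2O-Aged and PQ-Aged for aged flies. By the sample labels young flies were 14 days and aged flies 28 days old (the methods of the study give slightly different ages), and paraquat, a herbicide that generates superoxide by redox cycling, was given at 10 mM for 24 h while control flies received water.

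The comparison took PQ-Aged against PQ-Young. Its members were the loci with a value of at least 1 FPKM (fragments per kilobase of transcript, scaled to the mapped fragments of the library) in one of these groups, which held for 9428 of the 16191 loci in the deposited table; 8916 of them were protein coding, and 8895 of those had a value above 0 in both groups. Each value is the authors' group FPKM over 3 libraries. A pair of values gives PQ-Young and then PQ-Aged, and a set of 4 values gives young flies on water, young flies on paraquat, aged flies on water and aged flies on paraquat, always in this order. The table holds no value per library and no read count, so no spread, depth or test is given, and a locus is called higher or lower only when its ratio passes 2-fold. Of the 21 protein-coding loci listed at 0 in one group, 13 were at 0 in PQ-Aged and 8 in PQ-Young, and the highest value in the other group was 10.8 FPKM. In pooled tissue, fewer oenocytes and less RNA per oenocyte cannot be told apart.

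Oenocytes are the liver-like cells of insects. They build very-long-chain fatty acids by successive elongation, reduce them to aldehydes and decarbonylate these to the hydrocarbons that waterproof the cuticle and act as pheromones, and they are rich in peroxisomes. Paraquat places a load on superoxide dismutases, catalase, peroxiredoxins and glutathione S-transferases, the enzymes that remove reactive oxygen species and their products.

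Under paraquat 575 protein-coding loci were at least 2-fold higher in aged than in young oenocytes (6.46% of 8895) and 1215 were at least 2-fold lower (13.7%). These shares are the background for the counts of list members below. The median log2 ratio was -0.11, the middle of the distribution ran from -0.63 to 0.35, and 57.0% of loci differed by less than 1.5-fold. At 4-fold, 116 loci were higher and 251 lower. The groups differed in their FPKM summed over all loci of the table, at 1252260 for PQ-Young against 768733 for PQ-Aged (1693462 and 770263 on water). Scaling both groups to the same sum adds 0.70 to every log2 ratio and scaling to Gapdh1, a glycolytic enzyme at 907 and 447 FPKM, adds 1.02, so the sign of a ratio between 0 and -1.02 depends on the scaling. After scaling to Gapdh1 the medians of elongases, complexes II to IV, ATP synthase, both kinds of ribosomal protein, peroxins, peroxisomal and mitochondrial fatty acid oxidation, glycolysis, the TCA cycle and antioxidant enzymes turned positive, and higher and lower below refer to the values as deposited. For this reason several lists are also given by their distance from the median of all loci, which neither scaling changes. After quantile normalization the distance changed sign for cytosolic ribosomal proteins, antioxidant enzymes, metallothioneins, the CCT chaperonin, mitochondrial chaperones, and serpins and clip proteases.

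**Figure D1:**
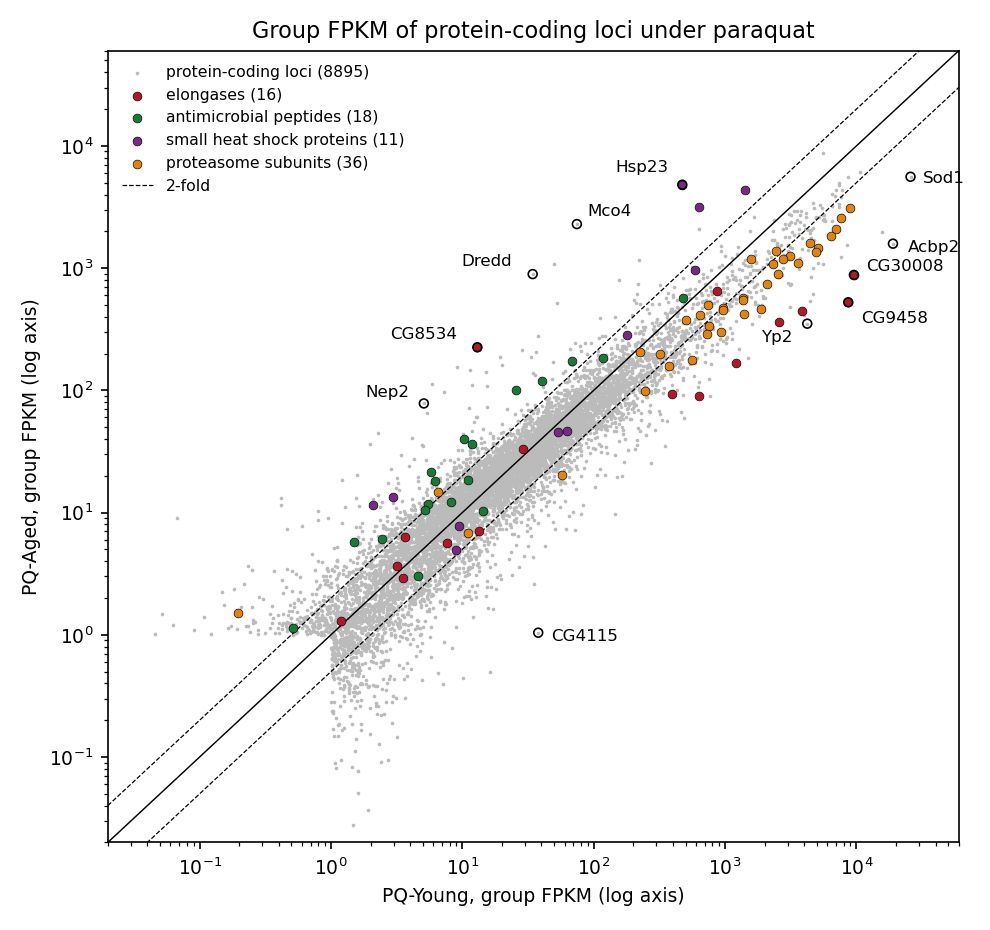
Group FPKM in PQ-Young (x, log axis) and PQ-Aged (y, log axis) of 8895 protein-coding loci, with 4 gene lists in colour, the line of equal values and dashed 2-fold lines; circled loci are named. Highly expressed loci such as Sod1 and Acbp2 and 7 of the 16 elongases lie below the lower 2-fold line, while Mco4, Dredd and Hsp23 lie far above the upper one; a common scaling factor would move all points up together.

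The ratio differed with the level of the locus and was highest at middle levels. Below 1 FPKM (the geometric mean of both groups) the median log2 ratio was -0.71 over 336 loci with 42.3% lower, and between 1 and 4 FPKM it was -0.17 over 1518 loci with 16.6% lower. Loci below 1 FPKM passed the floor in 1 group only, which forces unlike values. Over all levels 411 protein-coding loci passed the floor only in PQ-Young and 246 only in PQ-Aged. Among loci between 4 and 16 FPKM the median was 0.15 over 2373 loci, between 64 and 256 FPKM it was -0.36 over 1309 loci, and above 1024 FPKM it was -0.93 over 172 loci. Of these 172 loci, 43.6% were at least 2-fold lower and 2.33% higher. The proteasome and the cytosolic ribosomal proteins, lists of abundant loci, are set beside this share below, which counts their own loci at that level. In water the loci above 1024 FPKM had a median of -1.06.

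**Figure D2:**
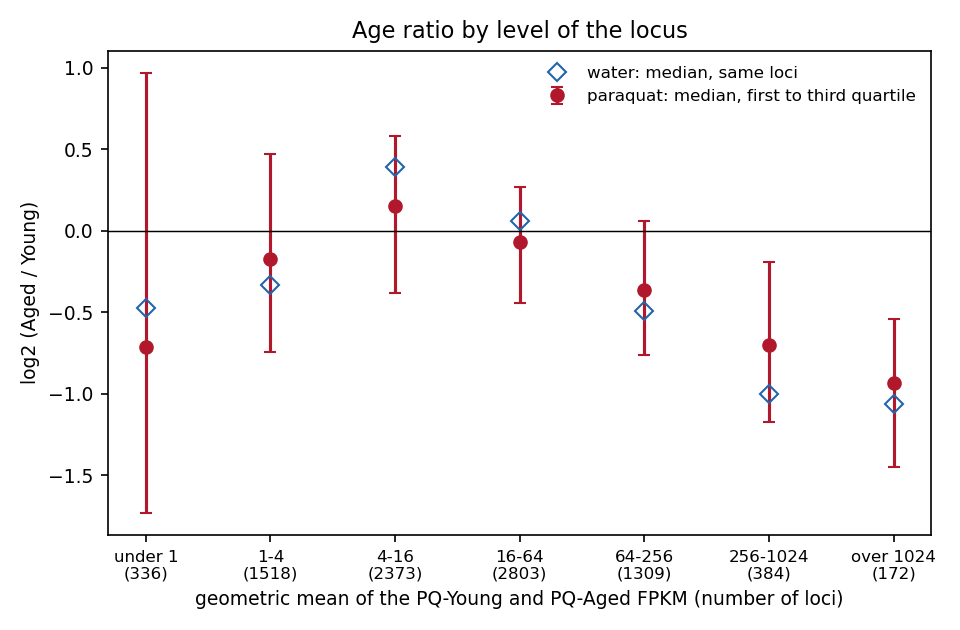
Median log2 ratio of aged to young by level, for protein-coding loci binned by the geometric mean of their PQ-Young and PQ-Aged FPKM; red points give paraquat with bars from the first to the third quartile over loci, and blue diamonds give water for the same loci. The paraquat median is -0.71 below 1 FPKM, 0.15 at 4 to 16 FPKM and -0.93 above 1024 FPKM. Loci in the bin below 1 FPKM passed the floor in 1 group only. A common scaling factor shifts all bins alike.

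Genes that define oenocytes were lower in the aged cells. The elongase eloF, needed for female pheromones, stood at 7317, 3849, 630 and 444 FPKM across the 4 groups, a log2 ratio under paraquat of -3.11. The hydroxysteroid dehydrogenase spidey had 5129 FPKM in PQ-Young and 1101 in PQ-Aged. The fatty acid synthases FASN3 (205 and 33.4 FPKM) and FASN2 (1353 and 424 FPKM) and the fatty acyl-CoA reductase FarO (1034 and 271 FPKM) were lower too. These 5 were the markers past 2-fold among 9 with a value, against 13.7% of all loci, and no marker was higher.

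The transcription factors of the cell type differed less. Hnf4, a nuclear receptor that controls hydrocarbon synthesis in oenocytes, had 87.1 and 45.6 FPKM, and svp, another nuclear receptor whose locus also holds CG44037, had 41.6 and 26.7 FPKM. The elongase bond (7.62 and 5.65 FPKM) and Desat1, whose locus is shared with vrs (100 and 101 FPKM), stayed within 2-fold. Desat1 is also the gene whose enhancer was used for the driver. The median of the marker list was -1.67, 1.56 below that of all loci (0.96 below after quantile normalization, when 4 were lower), and in water it was -1.69. Cyp4g1, the P450 that carries out the last step of hydrocarbon synthesis and the most used oenocyte marker, has no usable value: its locus lies in a block of the X chromosome that Cuffdiff marked as holding too many fragments and is listed at 0 in every group. The mark applied to 83 loci, 51 of them coding. They were left out everywhere except in the summed FPKM of each group and the scaling to equal sums. All 83 were listed at 0 in PQ-Aged and 44 of them at 0 in PQ-Young, so the rest added to the PQ-Young sum only. RpL13A, the tagged protein, was at 7306 FPKM in PQ-Young and 3171 in PQ-Aged (log2 ratio -1.20), and its reads may include those of the transgene.

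Several abundant enzymes of hydrocarbon synthesis were lower in aged cells. Among 16 very-long-chain fatty acid elongases, 7 were lower and 1 higher, with a median of -0.69, which was -2.83 over the members with at least 10 FPKM and 0.02 after scaling to equal sums. CG9458, an elongase gene at chr3R:9818914-9819877 (dm6), had 20395, 8656, 1001 and 525 FPKM across the 4 groups, and its log2 ratio of -4.04 was the lowest of the list. CG30008, which overlaps CG1513, had 9559 and 879 FPKM under paraquat. CG16904 (2576 and 360 FPKM), CG6660 (1213 and 166), CG18609 (637 and 89.4) and CG9459 (392 and 94.0) were the other lower members beside eloF. These are the elongases with the highest levels in PQ-Young apart from CG31523, which was at 870 and 652 FPKM. The 1 higher member was CG8534, at 13.0 FPKM in PQ-Young and 225 in PQ-Aged. In water its values were 121 and 201 FPKM, so PQ-Young was the group that stood apart, and the gene overlaps the antisense RNA asRNA:CR44035.

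Summed over the list, elongases gave 69279, 27826, 4861 and 3495 FPKM across the 4 groups. Fatty acyl-CoA reductases followed the same order, with 17205, 8560, 2348 and 1734 FPKM. Of 13 reductases 8 were lower and none higher, with a median of -1.22, 1.11 below that of all loci. In this list CG4020 had 3941 and 453 FPKM, CG17562 had a log2 ratio of -3.09, and CG17560 had 1886 and 664 FPKM.

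Fatty acid synthesis was represented by 12 loci, of which 7 were lower and 1 higher. Fad2, the female desaturase that makes pheromone precursors with a pair of double bonds, had 15747, 8545, 2125 and 1531 FPKM across the 4 groups. The predicted desaturase CG15531 had 7651 and 1242 FPKM. CG9747, a desaturase family member, was higher at 2.62 and 7.32 FPKM. ACC and ATPCL, which make malonyl-CoA and cytosolic acetyl-CoA for all tissues, were also lower, ACC at 223 and 105 FPKM and ATPCL with a log2 ratio of -1.23. Acbp2, an acyl-CoA binding protein that carries activated fatty acids, had 18962 FPKM in PQ-Young and 1584 in PQ-Aged, a log2 ratio of -3.58.

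Peroxisomes break down very long fatty acids, and peroxins are the proteins that build them. Of 12 peroxin loci 3 were lower and none higher, with a median of -0.55. Pex19, the chaperone of peroxisomal membrane proteins, had 636 FPKM in PQ-Young and 269 in PQ-Aged. Pex16 had 75.6 and 37.7 FPKM, a log2 ratio of -1.001 that only just passed the 2-fold limit. The locus of Pex2, which also holds Prim1 and CG7083, had 185 and 76.3. Pex5, the receptor that imports matrix enzymes, had 114 and 65.4 FPKM and did not pass 2-fold. The list lay 0.44 below all loci as deposited and 0.48 after quantile normalization, but none of the 3 loci was past 2-fold after it. Among 16 loci of peroxisomal beta-oxidation and related lipid enzymes 4 were lower (25.0%) and 1 higher (6.25%, close to the 6.46% of all loci). The lower loci were led by CG9577 (579 and 130 FPKM) and CG17597 (790 and 215 FPKM). Mfe2, the multifunctional enzyme of the pathway, had 341 and 134 FPKM.

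Many subunits of the respiratory chain and ATP synthase were lower in aged cells. Complex I (NADH dehydrogenase) had 20 of 34 loci lower and none higher, with a median of -1.07, complexes II to IV had 14 of 29 lower and 1 higher with a median of -0.97, and ATP synthase had 5 of 12 lower and none higher with a median of -0.86. These medians were 0.96, 0.86 and 0.75 below that of all loci, and 0.48, 0.42 and 0.16 below it after quantile normalization, when 3, 5 and 1 loci were called lower in place of 20, 14 and 5. ND-B12 carried 3241 FPKM in PQ-Young and 1449 in PQ-Aged, ND-MLRQ 1123 and 296. UQCR-C2, a core subunit of complex III, had 1766 and 500 FPKM, and COX8 of complex IV had 1021 and 244. ATPsynF had 2002 and 567 FPKM and ATPsyngamma, part of the rotor, 1675 and 528. The 1 higher locus, COX7CL, was at 1.23 and 3.12 FPKM. Many of these subunits lie above 256 FPKM. Between 256 and 1024 FPKM 35.7% of loci were lower, and above 1024 FPKM 43.6%, shares that count the listed subunits themselves.

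The step from fatty acids to acetyl-CoA in mitochondria had 4 of 17 loci lower (23.5%), none higher and a median of -0.81. CG4592, an enoyl-CoA isomerase by annotation, had 460 and 66.1 FPKM, and scu, a hydroxyacyl-CoA dehydrogenase, 3110 and 1485. Glycolysis had 5 of 15 lower (33.3%, median -0.64) and the TCA cycle 4 of 20 lower (20.0%, median -0.56), against 13.7% of all loci. Idh was at 1447 and 412 FPKM and Eno at 1049 and 451 FPKM. Ketogenesis and the mevalonate pathway had 2 of 10 lower (20.0%) and 1 higher (10.0%), with a median of -0.10. SCOT, which activates ketone bodies for use as fuel, had 800 and 236 FPKM.

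The proteasome was the large complex with the lowest median. Of 36 loci, 26 were lower (72.2%) and 2 were higher. The share lower was 13.7% over all loci and 43.6% over loci above 1024 FPKM, which include proteasome loci. The median was -1.32, 1.21 below that of all loci and 0.54 below it after quantile normalization, when 3 loci remained past 2-fold lower. Prosalpha3 had 12922, 8966, 3426 and 3125 FPKM across the 4 groups. Prosalpha6 had 1889 and 460 FPKM under paraquat, Prosbeta4 4907 and 1348, and Prosalpha7 7692 and 2567. Both higher loci were variants used in testis, Rpt6R (6.48 and 14.6 FPKM) and Prosbeta2R2 (0.197 and 1.52 FPKM). The latter passed the floor in PQ-Aged only.

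Cytosolic ribosomal proteins had 23 of 86 loci lower (26.7%, against 13.7% of all loci) and none higher. The 43.6% among loci above 1024 FPKM counts many of these same loci and is no separate background. The list median of -0.73 was 0.63 below that of all loci as deposited but 0.21 above it after quantile normalization. No locus was then called lower and 4 were called higher. RpL41, the smallest, was at 5592 FPKM in PQ-Young and 8764 in PQ-Aged, while RpL23 was at 10725 and 6112, RpL39 at 8599 and 5611, and RpL24 at 3726 and 1199. Its summed FPKM was 313917, 312721, 176763 and 181376, nearly the same on water and on paraquat at each age. Mitochondrial ribosomal proteins had 10 of 75 lower, a share of 13.3% that was close to the 13.7% of all loci, with none higher and a median of -0.57, and 3 were lower after quantile normalization. mRpS9 was at 231 and 65.0 FPKM and mRpL2 at 183 and 65.7.

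Single enzymes of redox defence differed in both directions. Sod1, the cytosolic superoxide dismutase and the highest protein-coding locus of PQ-Young, had 43243, 25791, 6705 and 5587 FPKM across the 4 groups. Catalase (Cat) had 4704 FPKM in PQ-Young and 994 in PQ-Aged, and Prx3, the mitochondrial peroxiredoxin, 547 and 172. Sod2, the mitochondrial dismutase, passed 2-fold narrowly at 538 and 261 FPKM. In every one of these 4 genes both aged groups lay below both young groups. In the other direction the thioredoxin Trx2 had 79.9 and 210 FPKM, and Gclc, the catalytic subunit that starts glutathione synthesis, had a log2 ratio of 1.13. Of 20 loci 4 were lower (20.0%, against 13.7% of all loci) and 2 higher (10.0%, against 6.46%), shares not far from those of all loci. Above 1024 FPKM, where Sod1 lies, 43.6% of loci were lower. The list median was -0.32, which was 0.21 below that of all loci as deposited and 0.33 above it after quantile normalization. The transcription factor cnc (Nrf2) had 35.7 and 45.9 FPKM, its inhibitor Keap1 10.2 and 16.8, and its partner maf-S 443 and 247, all within 2-fold.

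Glutathione S-transferases conjugate glutathione to lipid peroxidation products and toxins. In the Delta class 4 of 11 loci were higher (36.4%, against 6.46% of all loci) and 1 lower, with a median of 0.59, 0.70 above that of all loci. GstD10 had 9.05, 7.20, 80.6 and 96.9 FPKM across the 4 groups, GstD5 3.15, 4.17, 63.1 and 40.8 FPKM, and GstD4 1.22, 1.27, 9.25 and 11.2 FPKM. In these 3 genes the aged groups lay above the young groups with or without paraquat. GstD1, the most abundant of the class, had 1536 and 2008 FPKM under paraquat and did not pass 2-fold. In the Epsilon class 4 of 14 were higher (28.6%) and 3 lower (21.4%, against 13.7% of all loci). Of these 14 loci 3 passed the floor in 1 group only, as did 2 of the 11 Delta loci, which favours a call. GstE4 passed it in PQ-Aged only. GstE4 was at 0.756 and 3.38 FPKM, GstE8 at 3.46 and 12.4, and GstE12 at 302 and 114. The microsomal enzyme Mgstl, which overlaps the antisense RNA asRNA:CR44431, had 30828, 15690, 2685 and 1988 FPKM.

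Cytochrome P450 enzymes oxidise lipids, hormones and toxins. In the Cyp4 family 3 of 17 loci were higher (17.6%) and 5 lower (29.4%), against 6.46% and 13.7% of all loci. Cyp4e1 had 34.8 FPKM in PQ-Young and 2.58 in PQ-Aged, and Cyp4p2 had 15.1 and 141 FPKM. Cyp4d2 had 11.3 and 71.0 FPKM. Among 49 other P450 loci 2 were higher (4.08%) and 12 lower (24.5%), and 8 passed the floor in 1 group only. Their median of -0.15 was 0.04 below that of all loci, and 21 of the 49 ratios were above 0. After scaling to Gapdh1, 22 were higher and none lower. The ecdysone synthesis enzyme sad had 68.8, 157, 896 and 806 FPKM across the 4 groups, while phtm, which acts earlier in the same pathway, had 199, 204, 95.2 and 78.6 FPKM. Both enzymes are made in the follicle cells of the adult ovary. The study reports both as enriched in young oenocytes on water over whole flies, and proposes that oenocytes may take part in ecdysteroid synthesis. Which cells gave the values here was not tested.

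Most antimicrobial peptide genes measured were higher in aged oenocytes under paraquat. Antimicrobial peptides are small secreted proteins made under the Imd and Toll pathways. Of 18 measured, 12 were higher (66.7%, against 6.46% of all loci) and none lower, and the median of 1.23 was 1.34 above that of all loci. DptA, a diptericin, had 58.1, 25.5, 107 and 99.7 FPKM across the 4 groups. Dro (drosocin) had 19.8, 10.3, 41.3 and 39.7 FPKM, and AttD (attacin D) 11.6, 1.49, 5.14 and 5.70 FPKM. In all 3 genes PQ-Young was the lowest group. AttA and AttB are near-identical copies whose reads may be split, and had 5.80 and 21.4 FPKM and 11.8 and 36.3 FPKM. Drs (drosomycin), the most abundant of the list, was at 476 and 571 FPKM and did not pass 2-fold, nor did Mtk (118 and 184 FPKM).

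Bomanins, short peptides made under Toll, had 3 of 12 loci higher and 2 lower with a median of 0.56. BomS5 had 112 FPKM in PQ-Young and 394 in PQ-Aged, and BomS1 48.6 and 170. BomS6 went the other way at 282 and 119 FPKM, as did BomT2 at 10.4 and 3.01. Turandot genes encode humoral stress factors. Of 4 measured 3 were higher, among them TotM (14.3 and 47.9 FPKM), TotA (5.34 and 15.6 FPKM) and TotC (9.01 and 18.1 FPKM), while TotX at 1.14 and 1.93 FPKM did not pass 2-fold.

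The same lists were set beside their values on water. Over all loci 6.81% were at least 2-fold lower and 2.69% higher in PQ-Young than in H2O-Young, and 1.79% lower and 1.55% higher in PQ-Aged than in H2O-Aged. At the young age 11 of 17 antimicrobial peptides were at least 2-fold lower in PQ-Young than in H2O-Young and none was higher, with a median log2 ratio of -1.16. At the aged age none was 2-fold lower in PQ-Aged than in H2O-Aged, 1 was higher, and the median was -0.08. For Bomanins the medians of paraquat over water were -1.43 in young and 0.15 in aged flies, and for Turandot genes -1.82 and -0.20, with 4 of 4 at least 2-fold lower in PQ-Young. In water the antimicrobial peptides had 3 loci higher and 6 lower with age and a median of -0.65. These contrasts share their groups with the age comparison and are given for their values only, and the difference between the age ratios could not be tested.

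**Figure D3:**
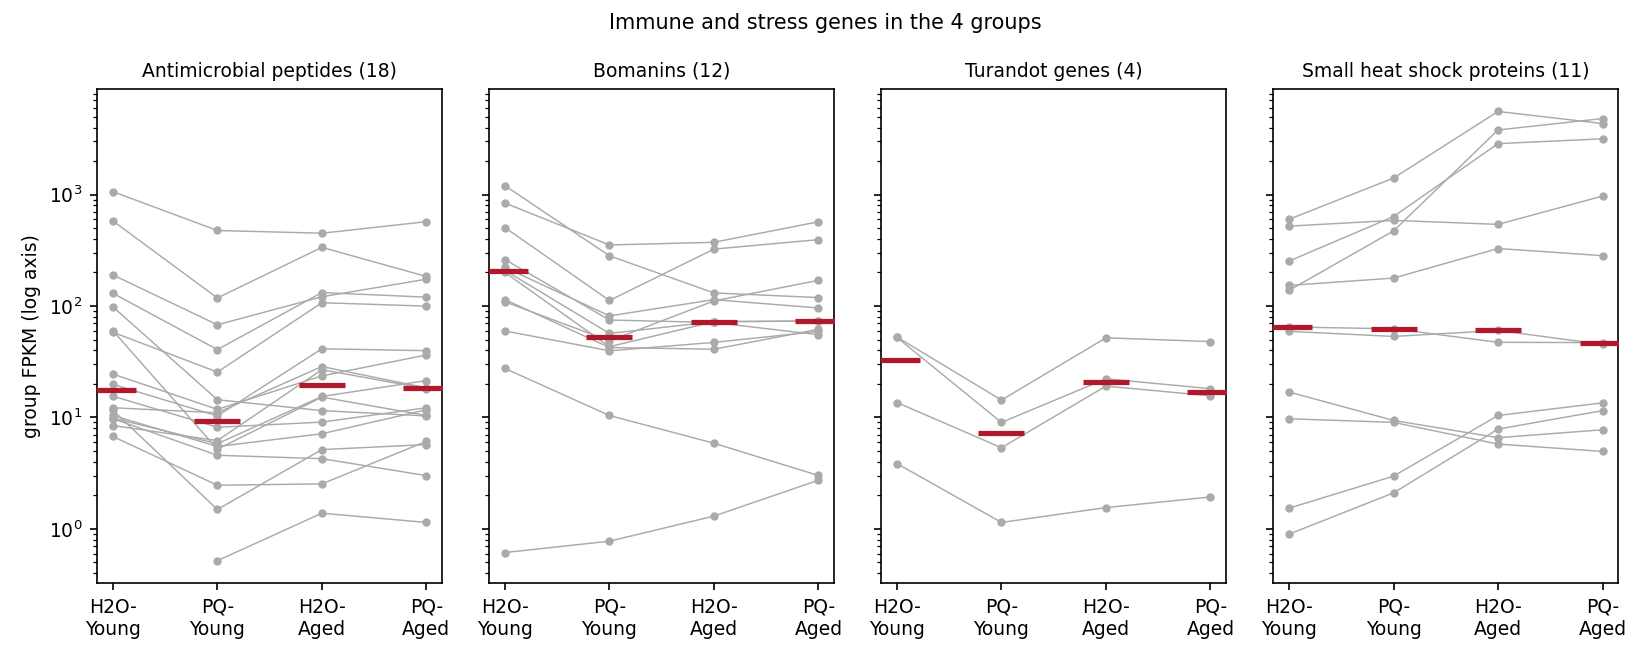
Group FPKM (log axis) of antimicrobial peptides (18), Bomanins (12), Turandot genes (4) and small heat shock proteins (11) in the 4 groups; each grey line joins the values of 1 locus, a value of 0 is not drawn, and red bars give the median over loci. The lowest median of the first 3 panels is that of PQ-Young, and 5 small heat shock loci lie higher in both aged groups than in both young groups by at least 2-fold under paraquat.

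Upstream of the effectors fewer loci passed 2-fold. Of 18 Imd pathway loci 3 were higher and 3 lower, 16.7% each way against 6.46% and 13.7% of all loci. The gene pirk, which encodes an inhibitor of the pathway, had 11.9 FPKM in PQ-Young and 46.3 in PQ-Aged. The receptor PGRP-LC (188 and 58.4 FPKM) and PGRP-LB, an amidase that degrades peptidoglycan (117 and 51.5 FPKM), were lower, as was PGRP-SD (51.1 and 7.38 FPKM). The transcription factor Rel had 68.4 and 71.1 FPKM. Dredd, the caspase that activates Rel, lies at chrX:633622-635545 (dm6) and overlaps Mybbp1A. It had 443, 34.3, 58.8 and 893 FPKM across the 4 groups, an order that follows neither age nor treatment. Of 19 Toll pathway loci 1 was higher and 1 lower (5.26% each).

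Small heat shock proteins, chaperones that hold unfolded proteins, were higher in aged cells for the abundant members Hsp23, Hsp26 and Hsp22. Hsp23 had 138, 472, 3803 and 4809 FPKM across the 4 groups. Hsp26 had 600, 1406, 5573 and 4341 FPKM, and the locus shared by Hsp22 and CG4456 had 253, 635, 2866 and 3166 FPKM. In each the aged groups lay above the young groups. Hsp67Ba (2.97 and 13.5 FPKM) and Hsp67Bc (log2 ratio 2.45) were also higher, giving 5 of 11 higher and none lower, with a median of 0.72, 0.83 above that of all loci. Hsp27 had 587 and 969 FPKM and did not pass 2-fold. The median of the list in water was 1.10. Summed FPKM was 1817, 3417, 13250 and 13697.

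Among the larger chaperones 3 of 13 were higher and 2 lower. Hsp70Bc, 1 of several near-identical copies, had 2.71 and 17.5 FPKM, and stv, a co-chaperone of the BAG family, 20.1 and 53.2. Hsp83 was at 545 and 573 FPKM and the constitutive Hsc70-4 at 1204 and 794. In the endoplasmic reticulum Hsc70-3 (BiP) had 213 FPKM in PQ-Young and 614 in PQ-Aged, and Ire1, a sensor of unfolded proteins, 4.47 and 9.61, while Sec61beta of the import channel had 589 and 290. Of the 19 loci on that list 2 were higher (10.5%) and 1 lower (5.26%). None of the 13 mitochondrial chaperone and quality control loci and none of the 8 subunits of the CCT chaperonin passed 2-fold in either direction, and both lists had medians that lay below all loci as deposited and above after quantile normalization.

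**Figure D4:**
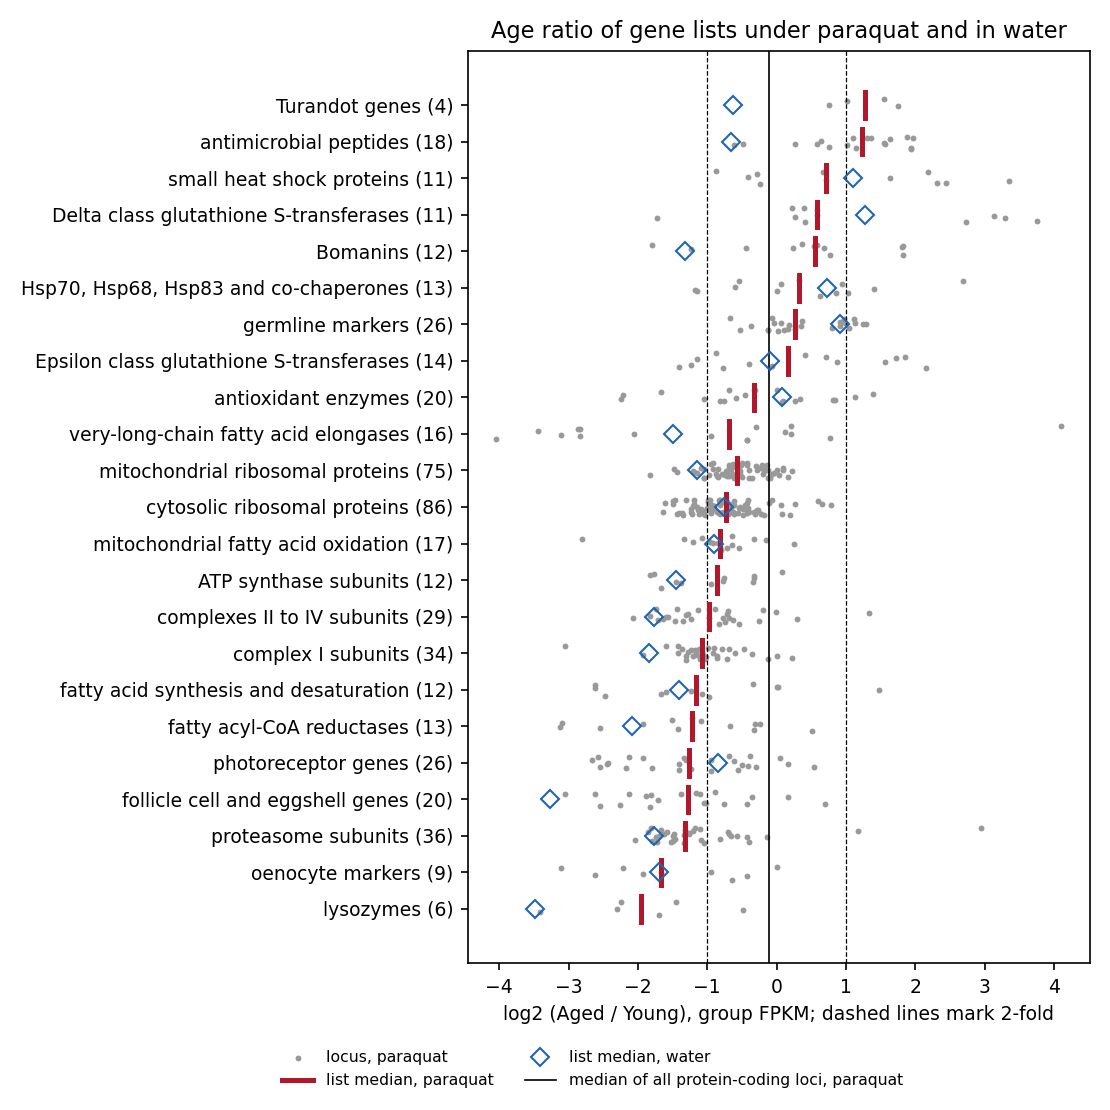
Log2 ratio of aged to young for 23 gene lists; grey points are loci under paraquat, red bars the list medians under paraquat, blue diamonds the medians in water, the black line the median of all protein-coding loci (-0.11) and dashed lines 2-fold, with the number of loci in parentheses. Turandot genes and antimicrobial peptides have the highest medians under paraquat, 1.28 and 1.23, and lysozymes the lowest, -1.96; cytosolic ribosomal proteins and antioxidant enzymes lie below the black line here and above the corresponding median after quantile normalization.

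Markers of other cells were present in the pulled-down RNA and differed with age as well; their part in the results above was not tested. Eggshell genes of the ovarian follicle cells had 14 of 20 loci lower and none higher, with a summed FPKM of 17250, 3790, 2163 and 2268 across the 4 groups. The chorion proteins Cp19 (489 and 59.1 FPKM) and Cp18 (log2 ratio -2.62) were among them, whereas Cp15 was at 935 and 1521. The yolk proteins Yp2 (4220 and 351 FPKM) and Yp1 (3099 and 479 FPKM), made by fat body and follicle cells, were lower. The oocyte yolk receptor yl had 1666, 223, 1059 and 1161 FPKM across the 4 groups, so the low value was again that of PQ-Young. Germline markers had 5 of 26 higher and none lower, with a summed level of 1005, 1185, 1506 and 1428 FPKM. The germline helicase vas, whose locus is shared with solo, had 66.5 and 163 FPKM.

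Midgut digestive enzymes had 23 of 37 loci lower (62.2%, against 13.7% of all loci) and none higher, with 14552, 7329, 3290 and 3934 FPKM in sum. Their median of -1.04 was 0.93 below that of all loci. After quantile normalization 19 were lower and with equal sums 5, while scaling to Gapdh1 left 1 lower and 3 higher. The trypsin alphaTry was at 3066 and 1797 FPKM and the protease Jon65Aiv at 1210 and 555. Lysozymes, which digest bacterial walls in the gut, had 5 of 6 lower, with LysP at 300 and 110 FPKM and LysS at 8.34 and 0.784. Photoreceptor genes had 14 of 26 lower (53.8%, against 13.7% of all loci) and none higher. Here PQ-Young was the highest group: the sums were 874, 1634, 656 and 538 FPKM. The rhodopsin ninaE had 238, 634, 241 and 117 FPKM in the same order, and Arr1, an arrestin, 76.8, 174, 39.1 and 39.7.

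Markers of neurons, muscle, blood cells and fat body were measured too. Of 12 neuron loci 1 was lower, of 24 sarcomere loci 2 were higher and 3 lower, and of 7 hemocyte loci 1 was higher and 3 lower. The crystal cell phenoloxidases PPO1 (2.53 and 0.226 FPKM) and PPO2 (8.88 and 1.15 FPKM) were the lowest ratios of the last list. Act57B, a muscle actin, had 203 and 551 FPKM, and Zasp66, a Z-disc protein, 294 and 103. Of 9 fat body markers 4 were measured, and their sum was 101, 65.8, 49.3 and 35.6 FPKM. Most male-only genes were under 1 FPKM: 3 of 19 passed, among them the dosage compensation RNA lncRNA:roX1 at 1.87, 2.33, 25.5 and 24.6 FPKM. The male dosage compensation gene msl-2 had 4.63 FPKM in PQ-Young and a log2 ratio of 1.96.

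Inside and outside the lists, the loci with the largest ratios at 10 FPKM or more included metabolic enzymes and genes of unknown function. Mco4, a multicopper oxidase at chrX:17852958-17856129 (dm6), had 62.9, 74.4, 2635 and 2291 FPKM across the 4 groups, a log2 ratio of 4.95. Nep2, a neprilysin peptidase, had 5.47, 5.09, 104 and 78.1 FPKM, and the dynein assembly factor Dnaaf3 9.67, 9.14, 134 and 155. All 3 were high in both aged groups and low in both young ones. CG13840 (5.87 and 113 FPKM), CG5853, an ABC transporter (5.39 and 64.9), CG11898, another ABC transporter (1.98 and 36.5), CG10359 (1.58 and 20.2), CG8568 (0.419 and 11.6), CG14810 (1.22 and 18.5) and CG34434 (0.417 and 13.2) were higher with age in water too, with log2 ratios there between 3.48 and 4.30. CG8051, a monocarboxylate transporter by annotation, had 2.88, 2.28, 9.34 and 44.8 FPKM.

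At the other end stood CG4115 (37.8 FPKM in PQ-Young and 1.04 in PQ-Aged), CG43117 (16.2 and 0.493) and NijB, a ninjurin of the cell surface (10.2 and 0.443). Their water values did not share the direction or the size: on water CG4115 had 0.980 FPKM in young and 25.9 in aged flies, and CG43117 8.41 and 12.7. CG11406, a lipase by annotation, had 199, 144, 34.2 and 9.64 FPKM across the 4 groups. CG5112, an amidase by annotation, had 579, 349, 179 and 35.3 FPKM. CG15358 (273 and 25.4 FPKM), CG8661 (17.0 and 1.61), Scgbeta, a sarcoglycan (72.0 and 7.23), and CG15646 (15.7 and 1.67) were lower with about the same ratio in water or a larger one.

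The age ratios in water spread more widely than those under paraquat. The water contrast rests on H2O-Young, and values without its library that stood apart are not analysed here. At the same 2-fold limit 13.5% of 9050 loci were higher and 23.4% lower with age in water. Over 8864 loci with both ratios, the SD of the log2 ratios was 0.897 under paraquat and 1.19 in water, and 67.5% of loci lay farther from 0 in water. A common scaling factor leaves the SD as it is but changes the distance from 0 and the calls. The ratios were correlated across loci (Pearson r 0.71, Spearman rho 0.72), which are not replicates and come from libraries normalized together. Of the 1204 loci lower under paraquat 75.2% were lower in water, and of the 1941 lower in water 46.6% were lower under paraquat. Of the 566 higher under paraquat 64.8% were higher in water, and of the 1219 higher in water 30.1% were higher under paraquat. Opposite calls were few: 29 loci were higher under paraquat and lower in water, and 8 the reverse.

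**Figure D5:**
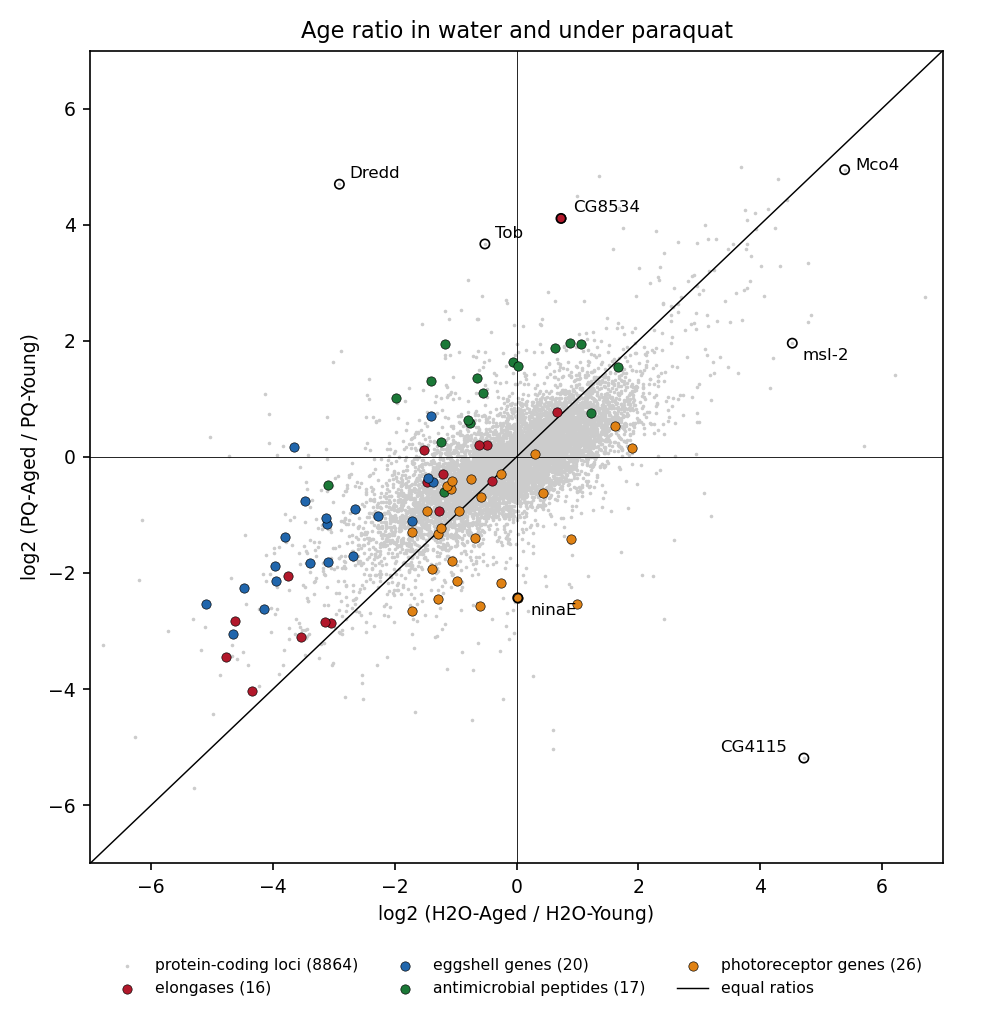
Log2 ratio of aged to young in water (x) and under paraquat (y) for 8862 protein-coding loci within the plotted range of 7 on each axis (2 lie outside), with 4 gene lists in colour and the line of equal ratios. Eggshell genes and most elongases lie above the line on the lower left, antimicrobial peptides lie above it, and most photoreceptor genes lie below it; a common scaling factor within one contrast moves all points along its axis together.

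The lists stood differently beside their water ratios, given here as deposited. Equal sums would shift the water and paraquat ratios by unlike amounts, so which median lies nearer to 0, or whether both are alike, depends on the scaling. Eggshell genes had a median of -1.27 under paraquat and -3.26 in water, and all 20 were at least 2-fold lower in PQ-Young than in H2O-Young, against 6.81% of all loci. Complex I (-1.07 and -1.84), the proteasome (-1.32 and -1.76) and mitochondrial ribosomal proteins (-0.57 and -1.15) had medians nearer to 0 under paraquat. The oenocyte marker list (-1.67 and -1.69) and cytosolic ribosomal proteins (-0.73 and -0.76) had almost the same median in both. Photoreceptor genes had a lower median under paraquat (-1.26) than in water (-0.85).

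The single loci whose age ratio differed most between paraquat and water often had 1 group apart from the rest. Notum, a secreted enzyme that removes a lipid from Wnt proteins, had 26.4, 0.234, 0.118 and 0.178 FPKM across the 4 groups. Dys (dystrophin) had 140, 5.30, 8.34 and 6.25 FPKM. The microtubule-linked nuclear envelope protein klar had 23.0, 164, 22.3 and 20.0 FPKM, and CG10063 3.24, 69.8, 17.4 and 10.1. Tob, of the antiproliferative Tob and BTG family, had 17.1, 11.5, 11.9 and 146 FPKM. So Notum and Dys stood apart in H2O-Young, klar and CG10063 in PQ-Young, and Tob in PQ-Aged. The transcription factor Glut4EF had 19.7, 224, 354 and 511 FPKM. CG43156, CG7567, CG33946, CG15571, CG15213 and the protease Jon25Bi were between 10.7 and 47.9 FPKM in H2O-Young and under 7 FPKM in each of the other groups. Without values per library it was not tested whether any of these comes from 1 library, the H2O-Young library that stood apart included.

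Genes of growth and genome maintenance were mostly within 2-fold. DNA replication had 1 of 39 loci higher (2.56%) and 2 lower (5.13%), and DNA repair and checkpoints 1 and 1 of 39 (2.56% each). The cell cycle had 2 of 18 higher (11.1%) and none lower, against 6.46% and 13.7% of all loci. These 3 medians were 0.26, 0.37 and 0.50 above that of all loci, with 30, 30 and 16 loci above it. In water 8, 12 and 10 loci of these lists were at least 2-fold higher with age and 2, 1 and 0 lower, against 13.5% and 23.4% of all loci. Insulin, FOXO and TOR signaling had a median of 0.11, with 3 of 22 lower (13.6%, close to the 13.7% of all loci) and none higher: ImpL2, a secreted antagonist of insulin-like peptides, had 2800 FPKM in PQ-Young and 1288 in PQ-Aged, and the peptide Ilp6 16.6 and 6.29. Autophagy had 4 of 24 higher (16.7%) and none lower, with Atg18b (1.11 and 3.60 FPKM) among the higher loci. JAK-STAT and JNK signaling had 2 of 15 higher (13.3%). The stress-induced Gadd45 was at 11.5 and 34.4 FPKM, and the cytokine upd3 at 1.59 and 4.25 FPKM, against 0.738 and 6.65 on water.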

How the data were processed

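Oenocyte RNA bound to FLAG-tagged ribosomes was purified from pools of whole females, polyA selected, made into directional libraries from equal amounts of RNA and sequenced single-end; less RNA was recovered from aged flies. The submitters' processing notes name TopHat2, Cufflinks, Cuffdiff and the dm6 genome. The deposited table gives 1 group FPKM per locus, which the authors computed with Cuffdiff over 3 libraries. It also holds their log2 fold changes, test statistics, p-values and q-values for the 6 pairs of groups, none of which was used here. It has no value per library and no read counts, so the depth of each library is unknown and no error can be given. The study reports only a total number of reads and a mean mapping rate over all libraries. Whether the counting used strand is not given in the sources used here, so overlapping genes are uncertain, as are near-identical copies.

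The log2 ratio of PQ-Aged to PQ-Young was recomputed with pandas 2.3.3 for loci with an FPKM of at least 1 in one group, with no pseudocount. Loci marked as holding too many fragments were left out except from the summed FPKM of a group and the scaling to equal sums. Loci holding several genes were counted once, and protein-coding loci form the background. Tables and figures were made with numpy 2.4.6 and matplotlib 3.10.9, and the calculations were tested on simulated data. Coordinates are from the RefSeq annotation of dm6. The alternatives were FPKM floors of 10 and 0, a pseudocount of 1, median centring, scaling to Gapdh1 or to equal summed FPKM, quantile normalization, loci with 1 gene only, all loci and a 4-fold limit.

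The 71 gene lists and the comparison were chosen with earlier results of these data known. Genes were named by rule: the 15 largest and 15 smallest ratios at 10 FPKM or more among loci of 1 gene, the 4 most abundant loci of every list and its 4 loci with the largest ratio, the oenocyte markers, RpL13A, Gapdh1, and the 10 loci each way whose ratio differed most from that in water. ATPCL, AttB, CG6660, CG9459, CG9747, CG18609, CG31523, COX7CL, Gclc, Rel, Rpt6R and Sod2 were added after their values were seen.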

Additional observations from a re-analysis of the deposited data

How the results depend on the processing

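The direction and size of the whole comparison depended on the scaling. As deposited, 575 protein-coding loci were higher and 1215 lower (67.9% of calls lower) with a median log2 ratio of -0.11. Scaling to Gapdh1 gave 4015 higher and 240 lower (5.64% lower) with a median of 0.91, and equal summed FPKM gave 2444 higher and 381 lower (13.5% lower) with a median of 0.59. Both are constant shifts, of 1.02 and 0.70. Median centring gave 733 higher and 998 lower (57.7% lower) with a median of 0.00, and quantile normalization 697 and 890 (56.1% lower) with a median of 0.01. Requiring 10 FPKM left 276 higher and 765 lower, no floor gave 1006 and 1693, a pseudocount of 1 gave 347 and 908, and a 4-fold limit 116 and 251. Counts stayed within 1.5 times for loci of 1 gene (552 and 1171) and for all loci (676 and 1307).

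Of the 71 list medians, 69 moved with Gapdh1 scaling, 45 with equal sums, 16 with quantile normalization, 11 with the floor of 10 FPKM, 9 with median centring and 4 with the pseudocount. Relative to all loci, quantile normalization turned cytosolic ribosomal proteins, antioxidant enzymes, mitochondrial chaperones, metallothioneins and the CCT chaperonin from below to above the median, and serpins and clip proteases the other way. No paired analysis was possible because the table holds no value per library; for the same reason leaving out each library in turn was not run. Group values cannot show whether 1 of 3 libraries sets a ratio, and ratios of loci near 1 FPKM are the least certain.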

Other observations

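Among loci that are not protein coding, 133 had at least 10 FPKM in PQ-Young or PQ-Aged. Of these 34 were at least 2-fold higher and 27 lower in aged oenocytes under paraquat, and the median log2 ratio was 0.21. The shares over protein-coding loci, at the floor of 1 FPKM, were 6.46% higher and 13.7% lower. Many entries are snoRNA, snRNA or microRNA genes listed in much longer loci. The libraries were polyA selected, so these values are uncertain. The examples that follow were chosen after their values were seen. The long noncoding RNA lncRNA:CR43196 had 13580, 8688, 787 and 486 FPKM in young flies on water, young flies on paraquat, aged flies on water and aged flies on paraquat. It is as abundant as the leading elongases and lower in both aged groups. The antisense RNA asRNA:CR45943 followed the same order at 1105, 691, 148 and 62.1 FPKM. In contrast, lncRNA:CR40469 had 2743, 2246, 5620 and 14176 FPKM, with the highest value in aged flies on paraquat, and lncRNA:CR44060 had 0.0512, 4.62, 14.2 and 62.4 FPKM.

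By chromosome, the median log2 ratio of protein-coding loci lay between -0.14 and -0.06 on X, 2L, 2R, 3L and 3R. On chromosome 4 it was 0.32 over 55 loci, of which 8 were higher (14.5%, against 6.46% of all loci) and 3 lower (5.45%, against 13.7%). The loci of chromosome 4 had a median level of 6.84 FPKM, against 15.7 to 18.9 FPKM on the others. Over all chromosomes the loci between 4 and 16 FPKM had a median ratio of 0.15, the highest of any level. The number of loci on chromosome 4 is small, and no test was made.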
